A study of Mus musculus with 10 samples.

Results

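The 7 genes described here are the 5 mouse genes of the CREB3 family of transcription factors, *Creb3*, *Creb3l1*, *Creb3l2*, *Creb3l3* and *Creb3l4*, and the genes of the Golgi proteases that release them, *Mbtps1* and *Mbtps2*. They were taken by name from a table of 53801 genes, and all 7 were found and tested among 14336 genes. RNA was sequenced from AtT20/D16v-F2 cells, a mouse corticotroph cell line from a pituitary tumour. A stable line transduced with lentivirus expressing *Creb3l1*-shRNA1, a short hairpin RNA against *Creb3l1*, was compared with a stable line carrying a non-targeting shRNA, with 5 libraries of each, to ask what loss of *Creb3l1* changes in a secretory cell. Each condition is a single transduced line, so that the effect of the hairpin and any other difference between the lines cannot be told apart. The labels name no other agent for either line.

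CREB3 family proteins are held in the membrane of the endoplasmic reticulum (ER) by a single transmembrane segment. When they reach the Golgi, site-1 protease, encoded by *Mbtps1*, cuts them on the luminal side and site-2 protease, encoded by *Mbtps2*, cuts within the membrane, and the released N-terminal part enters the nucleus and acts through its basic leucine zipper. The same pair of proteases releases ATF6 in ER stress and the SREBP factors when sterols are low. The family is known for adjusting the capacity of the secretory pathway, which in corticotrophs carries pro-opiomelanocortin and the enzymes that process it.

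The sequences of the 2 hairpins are shown because the whole comparison rests on them, with a stretch of 21 bases, among those with the most matches, from each of the 2 other family genes that were lower in the knockdown line. Each is the first along the transcript of several with equal matches, 7 in *Creb3l2* and 3 in *Creb3l3*. Capitals mark bases of a transcript that differ from *Creb3l1*-shRNA1 at the same place.
Non-targeting shRNA: atcatgttaggcgtacggact
Creb3l1-shRNA1 and its site in Creb3l1: gagtcggatttcctcaacaat
First of the closest stretches in Creb3l2: gagAcTgaGGCcctcaTGTaC
First of the closest stretches in Creb3l3: gaTtcTgatGAATtcCTAaat
The *Creb3l1* site had 21 of 21 bases in common with the hairpin and lay in the coding sequence, at chr2:92024007-92024027 of GRCm38 on the minus strand. It was the only transcript with a full match among the longest transcripts of 14315 genes tested. The closest stretches in *Creb3l2* and *Creb3l3* had 12 matching bases each, those in *Creb3* and *Creb3l4* also 12, and those in *Mbtps1* and *Mbtps2* 13. A stretch with at least 12 matches was present in 13393 of the 14315 transcripts, so that a match of this size did not set the family apart.
The strand that pairs with this site is shown with its seed, bases 2 to 8, in capitals.
Guide strand of Creb3l1-shRNA1: aTTGTTGAggaaatccgactc
The complement of the seed, TCAACAA, was found in the coding sequence of *Creb3l1*, within the target site, and at 1 place in the coding sequence of *Creb3l4*. It was not found in the longest transcripts of *Creb3*, *Creb3l2*, *Creb3l3*, *Mbtps1* or *Mbtps2*. Among 12377 coding genes compared, 18.0% held the word in the coding sequence and 7.55% in the 3′ untranslated region.

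The libraries held between 17420698 and 22205107 counts on genes. Non-targeting shRNA replicate 3 stood apart, with 4.13% of its counts on the non-coding gene *Gm42418* against 0.106% to 0.191% in the other 9. Of 8 corticotroph markers, *Avpr1b* was at 0 in all libraries and the other 7 were tested, of which 6 were called (adjusted p under 0.01, edgeR). Among all genes tested 40.7% were called, so that a call alone does not set a marker apart. *Pomc* (log2 fold change -0.51), *Pcsk1*, *Tbx19* and *Nr3c1* were lower, and *Neurod1* (0.62) and *Pitx1* were higher. The summed normalised counts of the 8 markers, made up mostly of *Pomc*, were 152697 to 163878 in the non-targeting line and 110757 to 117507 in the knockdown line. By quantitative PCR, the paper found *Pomc* mRNA unchanged in its knockdown lines. Of 9 markers of other pituitary cells, *Prl*, *Tshb* and *Fshb* were at 0 and the sums were 295 to 318 against 328 to 376, largely from *Pcsk2*, the only 1 of them tested and called. Of 5 markers of other tissues, *Ptprc* was at 0 and the sums were 813 to 985 against 968 to 1316, largely from *Col1a1*, which was not called. The 2 called of the 3 tested were *Pecam1*, lower with a log2 fold change of -1.08 at 4 to 17 reads, and *Sox2*, higher at 0.33. The part of these shifts in the results below was not tested.

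*Creb3l1* fell in the knockdown line by 70.4% of its level, *Creb3l2* fell by a much smaller amount and the weakly expressed *Creb3l3* fell by 0.95 on the log2 scale. In RNA from whole cultures, fewer cells expressing a gene and less RNA per cell cannot be told apart. *Creb3* and *Mbtps1*, the family gene next in level to *Creb3l1* and the site-1 protease gene, had values near 0 that did not pass the test. *Creb3l4* and *Mbtps2* also missed it, with log2 fold changes of -0.65 and 0.11. With the quasi-likelihood test of edgeR (Benjamini-Hochberg adjustment over all genes, limit 0.01), 3 of the 7 genes were called and all 3 were lower. Among all genes tested 40.7% were called, 20.6% higher and 20.1% lower, so that 3 of 7 is near the background share. The same 3 genes had no overlap between the lines in normalised count, where 36.0% of all genes did not overlap. The median log2 fold change of the 7 genes was -0.27, beside -0.0025 over all genes tested. Of the 7, 2 were called and changed by at least 1.5-fold, as did 7.73% of all genes. The 7 include *Creb3l1*, the target of the hairpin, which enters each of these counts as lower by design. They also include *Creb3l4*, which was tested through the line in which it was higher. The median and the counts are thus a description of the 7 genes only. At an adjusted p under 0.05, 4 of the 7 were called, with 50.3% of all genes. Without non-targeting replicate 3 the same 3 genes were called, with log2 fold changes of -1.76 for *Creb3l1*, -0.27 for *Creb3l2* and -0.89 for *Creb3l3*.

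**Figure D1:**
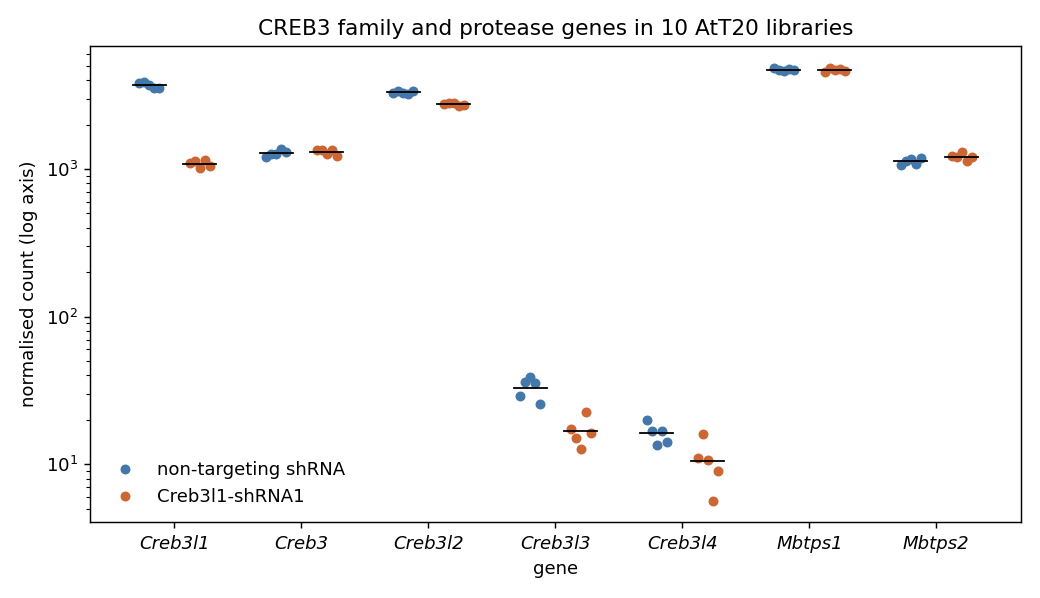
Normalised count (log axis) of each of the 7 genes in every library, with the non-targeting shRNA line in blue, the Creb3l1-shRNA1 line in orange and the mean of 5 libraries as a black line. The lines are apart for Creb3l1, Creb3l2 and Creb3l3 and overlap for the other 4 genes.

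*Creb3l1* (ENSMUSG00000027230), also called OASIS, encodes a family member known from bone, glia and peptide-secreting cells. It lies on the minus strand at chr2:91982328-92024502. Its normalised counts, that is, counts scaled to a common library size, were 3805, 3864, 3694, 3551 and 3531 in non-targeting replicates 1 to 5. In the knockdown line they were 1093, 1133, 1014, 1159 and 1051. The highest knockdown library was below the lowest control library by a wide margin, and the spread within each line was small, with coefficients of variation of 4.02% and 5.43%. The log2 fold change was -1.76 (SE 0.036, adjusted p = 2.1e-33, edgeR), and 0.474% of the genes tested, *Creb3l1* included, had a value this low or lower. The transcript was reduced and not lost, with 953 to 1223 reads still counted in each knockdown library.

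*Creb3l2* (ENSMUSG00000038648), or BBF2H7, encodes the family member closest to *Creb3l1* in structure and is known for its part in the secretion of cartilage matrix. It lies on the minus strand at chr6:37327255-37442146. Its normalised counts in non-targeting replicates 1 to 5 were 3281, 3361, 3263, 3205 and 3396. They were 2757, 2783, 2822, 2670 and 2694 in the knockdown line. All 5 knockdown libraries lay below all 5 control libraries. The mean fell from 3301 ± 77.2 to 2745 ± 62.8 (SD, n = 5 each), a log2 fold change of -0.27 (SE 0.028, adjusted p = 1.2e-10, edgeR).

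*Creb3l3* (ENSMUSG00000035041), or CREB-H, encodes the family member of liver and small intestine that regulates lipid and glucose metabolism. It lies on the minus strand at chr10:81084324-81098874. Only 29, 34, 32, 38 and 27 reads were counted on it in non-targeting replicates 1 to 5. In the knockdown line 19, 14, 12, 24 and 18 reads were counted. After scaling, the lowest control library was at 25.5 and the highest knockdown library at 22.7, so that the lines were separate by a small gap. The log2 fold change was -0.95 (SE 0.22, adjusted p = 4e-04, edgeR), with a 95% interval from -1.40 to -0.50, and at such counts its size is known only roughly. The gene passed the filter on low counts in all 5 libraries of each line.

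*Creb3l4* (ENSMUSG00000027938), known from prostate and from the testis, where it takes part in sperm maturation, lies on the minus strand at chr3:90237500-90243512. The reads counted on it were 20, 16, 11, 18 and 15 in non-targeting replicates 1 to 5 and 12, 15, 10, 6 and 10 in the knockdown line. After scaling, the controls were at 13.4 to 20.1 normalised counts, knockdown replicate 2 lay among them at 16.1, and the other 4 knockdown libraries were lower, at 5.69 to 11.0. The log2 fold change was -0.65 with a 95% interval from -1.25 to -0.058 and did not pass the test (adjusted p = 0.062, edgeR). It reached the minimum count in 5 non-targeting libraries and in 3 knockdown libraries, so that it was tested through the line in which it was higher.

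*Creb3* (ENSMUSG00000028466), or Luman, is the founding member of the family and lies on the plus strand at chr4:43562332-43567060. Its normalised counts were 1203, 1264, 1255, 1365 and 1304 in non-targeting replicates 1 to 5. They were 1340, 1348, 1262, 1337 and 1231 in the knockdown line. The lines overlapped over most of their range. The log2 fold change was 0.027 with a 95% interval from -0.049 to 0.10 (adjusted p = 0.59, edgeR). When the model was given an offset for the GC content and length of each transcript, it was 0.11 and passed the test (adjusted p = 0.0063, edgeR), so that its call depends on this choice. Exons of *Creb3* share 360 bases with *Tln1* and 133 bases with *Gba2*, both on the opposite strand, and whether the counting used strand is not given in the sources used here. *Tln1* had a log2 fold change of 0.15 and *Gba2* of -0.15, and their part in the count of *Creb3* was not tested.

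*Mbtps1* (ENSMUSG00000031835), the site-1 protease gene, lies on the minus strand at chr8:119508156-119558735. Its normalised counts were 4865, 4689, 4601, 4783 and 4649 in non-targeting replicates 1 to 5. They were 4511, 4844, 4673, 4741 and 4618 in the knockdown line. The control range lay almost wholly within that of the knockdown line. The log2 fold change was -0.013 with a 95% interval from -0.067 to 0.041 (adjusted p = 0.73, edgeR).

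*Mbtps2* (ENSMUSG00000046873), the site-2 protease gene, lies on the minus strand at chrX:157535371-157598715. Its normalised counts were 1059, 1136, 1178, 1083 and 1186 in non-targeting replicates 1 to 5 and 1223, 1213, 1308, 1130 and 1201 in the knockdown line. Of the knockdown libraries, 4 were above every control library and replicate 4 was among the controls. The log2 fold change was 0.11 (SE 0.040) with a 95% interval from 0.026 to 0.19, which missed the threshold (adjusted p = 0.024, edgeR). It passed the threshold without *Creb3l1*-shRNA1 replicate 4 (log2 fold change 0.13, adjusted p = 0.0072, edgeR) and was 0.020 with the offsets for GC content and length. *Yy2*, an intronless gene on the same strand, shares 2867 bases of exon with *Mbtps2* and had no count in any library. Reads on the shared bases could have been dropped by the counting, so that the lack of counts does not give the level of *Yy2*. The exon length of *Mbtps2* used below includes these bases. Their part in the values of *Mbtps2* was not tested.

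The ratio of reads on *Mbtps2* to reads on *Mbtps1* within a library does not depend on the scaling of libraries. It was 0.218 to 0.256 in the non-targeting line and 0.238 to 0.280 in the knockdown line, and these ranges overlapped. The difference in the log2 ratio was 0.12, beside SDs between libraries of 0.10 in the non-targeting line and 0.092 in the knockdown line. A two-sided exact permutation test of this difference gave p = 0.11 (n = 5 each, where the smallest possible p is 0.0079). The ratio of *Creb3l2* to *Creb3* was 2.35 to 2.73 in the non-targeting line and 2.00 to 2.24 in the knockdown line, without overlap. The ratio of *Creb3l1* to *Creb3l2* was 1.04 to 1.16 in the former and 0.359 to 0.434 in the latter.

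**Figure D2:**
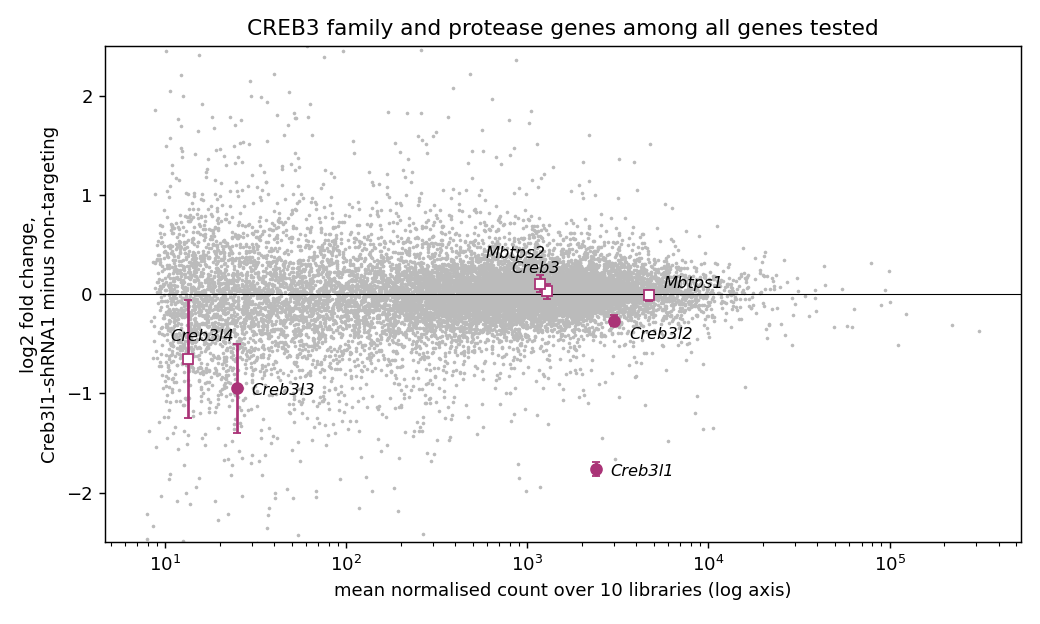
Log2 fold change (Creb3l1-shRNA1 minus non-targeting shRNA) against mean normalised count over 10 libraries (log axis) for all genes tested in grey, 44 of which lie beyond 2.5 in size and are not drawn, and for the 7 genes in purple with 95% intervals. Filled circles (Creb3l1, Creb3l2, Creb3l3) had an adjusted p under 0.01 and open squares did not, and the intervals of Creb3l3 and Creb3l4, at the lowest counts, are the widest of the 7.

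Levels can be compared between genes only per length. Per kilobase of exon, taking all annotated exons of a gene, *Creb3l1* had the highest level of the 7 genes in the non-targeting line, 1417 ± 56.9 normalised counts per kb (SD, n = 5), above 95.6% of the genes tested. *Creb3* followed at 539 ± 25.5 normalised counts per kb. *Creb3l2* at 453 ± 10.6 and *Mbtps1* at 448 ± 10.1 normalised counts per kb differed by less than the spread between libraries. *Mbtps2* was at 112 ± 5.60 normalised counts per kb. *Creb3l3* at 11.0 ± 1.86 and *Creb3l4* at 9.72 ± 1.58 normalised counts per kb were at the bottom, above 9.83% and 8.67% of the genes tested, and also differed by less than their spread. In the control line 3 family mRNAs were thus abundant and the counts of the other 2 were near the minimum for testing.

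In the knockdown line the order of levels per kb of annotated exon changed. *Creb3* was highest by this length at 550 ± 22.4, followed by *Mbtps1* at 444 ± 11.9, *Creb3l1* at 419 ± 22.7 and *Creb3l2* at 377 ± 8.62 normalised counts per kb. *Mbtps1* and *Creb3l1* were about as far apart as libraries of a line. *Mbtps2* was at 120 ± 6.28 normalised counts per kb, and *Creb3l3* and *Creb3l4* were at 5.59 ± 1.23 and 6.25 ± 2.24. The place of the proteases in these orders depends on the length used. Over the longest coding transcript, *Mbtps1* was at 1088 ± 24.5 and *Mbtps2* at 235 ± 11.8 normalised counts per kb in the non-targeting line, since the annotated exons of these genes sum to 10539 and 10105 bases against longest coding transcripts of 4336 and 4797 bases. *Creb3* was at 679 and *Creb3l2* at 466 normalised counts per kb by that length, and *Creb3l1* had the same length either way. In the knockdown line by the longest coding transcript, *Mbtps1* was highest at 1079 ± 29.0, followed by *Creb3* at 692 ± 28.2, *Creb3l1* at 419 ± 22.7 and *Creb3l2* at 388 ± 8.86 normalised counts per kb. *Creb3l1* thus led the 7 genes by either length in the non-targeting line, and by neither in the knockdown line.

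Of the 5 family genes summed per kb, *Creb3l1* held 58.3 ± 1.45% in the non-targeting line (SD, n = 5) and 30.8 ± 0.941% in the knockdown line. The share of *Creb3* was 22.2 ± 1.29% and 40.5 ± 0.452%, and that of *Creb3l2* was 18.7 ± 0.487% and 27.8 ± 1.11%, although neither gene had a higher level that passed the test. *Creb3l3* and *Creb3l4* held under 1% each in every library. The summed level of the family was 2430 ± 44.0 normalised counts per kb in the non-targeting line and 1357 ± 42.9 in the knockdown line. Without *Creb3l1* the sum was 1013 ± 24.3 and 938 ± 25.3 normalised counts per kb, so that the other 4 genes together were not higher in the knockdown line.

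**Figure D3:**
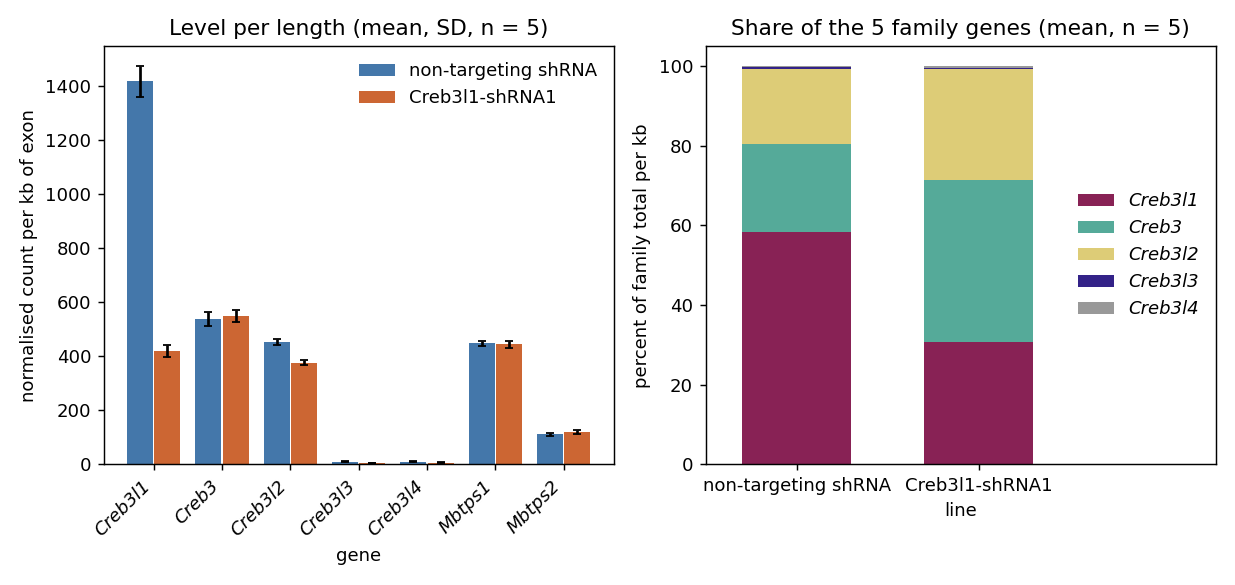
Left, level of each gene in normalised counts per kb of annotated exon, as mean with SD over 5 libraries of the non-targeting (blue) and Creb3l1-shRNA1 (orange) lines. Right, share in percent of each of the 5 family genes in their summed level per kb (mean of 5 libraries), in which Creb3l1 went from 58.3% to 30.8% and Creb3 from 22.2% to 40.5%.

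The G-box core GACGTG is a word bound by CREB3L1 and was the promoter element examined in this study, so it was looked for on both strands in the promoters of the family, from 250 bases before to 50 bases after the start site (RefSeq, GRCm38.p6). Promoters were listed for 6 of the 7 genes, *Creb3l1* being the exception, in 9 windows. A G-box core was found in 2 windows, which are shown with the word in capitals.
Creb3, chr4:43562539-43562568, plus strand: catagcccccggGACGTGgcgcagcccagg
Creb3l3, chr10:81092579-81092608, minus strand: ttgggaggtggaGACGTGgcaaaggctgta
Of the 32851 windows listed for mouse genes 6.38% held the word. In *Creb3* it lay upstream of the start site of its window. In *Creb3l3* it was in 1 of 2 windows and began 5 bases before the start site of that window. Both words lay within the gene spans given above, so that these positions hold only for the RefSeq start sites used. Of these 2 genes, *Creb3l3* was lower in the knockdown line and *Creb3* did not pass the test, and *Creb3l2*, which was lower, had no G-box core in its window. The full cAMP response element TGACGTCA was found in none of the 9 windows and in 1.79% of all windows.

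The genes whose pattern over the 10 libraries was most like that of *Creb3l1* were chosen by that likeness, so their values are a description. The measure was the root mean square difference in log2 normalised count after centring each gene on the non-targeting mean, over 11000 genes whose mean normalised count was 100 or more. *C77080* was closest at 0.090, with 1254 to 1438 normalised counts in the non-targeting line and 375 to 481 in the knockdown line. *Ggt1*, a gamma-glutamyltransferase gene of glutathione metabolism, followed at 0.096, with 1324 to 1459 and 356 to 410 normalised counts. *Omp*, a marker of olfactory neurons, *Homer2*, a synaptic scaffold gene, and *Lamb3*, a laminin gene, were at 0.15 each, with log2 fold changes of -1.84, -1.68 and -1.64.

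Other substrates and partners of the 2 proteases moved little and in both directions. Of 9 such genes, all tested, 2 rose, 2 fell and 5 did not pass the test, and the median log2 fold change was -0.043. Among all genes tested 40.7% were called. *Scap*, the escort of SREBP proteins to the Golgi, had between 5490 and 5793 normalised counts in the non-targeting line and between 6185 and 6801 in the knockdown line, a log2 fold change of 0.17 (SE 0.027, adjusted p = 1.5e-06, edgeR). *Srebf2*, the factor of cholesterol synthesis, had a log2 fold change of 0.088 (adjusted p = 0.0033, edgeR) and missed the threshold in 3 of 10 fits with a library removed, those without non-targeting replicate 4 or 5 or *Creb3l1*-shRNA1 replicate 3. *Srebf1*, the factor of fatty acid synthesis, had between 6175 and 6313 normalised counts in the former and between 5262 and 5817 in the latter, a log2 fold change of -0.19 (adjusted p = 1.2e-07, edgeR). *Insig1*, which retains the SREBP-SCAP complex in the ER, had a log2 fold change of -0.12 (adjusted p = 0.00041, edgeR). The ER stress sensors released by the same proteases, *Atf6* and *Atf6b*, had log2 fold changes of 0.051 and -0.089 and missed the threshold (adjusted p = 0.12 and 0.016, edgeR). *Atf6* was at -0.052 with the offsets for GC content and length, and *Atf6b* passed the threshold without *Creb3l1*-shRNA1 replicate 2 (adjusted p = 0.0094, edgeR). *Insig2*, *Gnptab*, whose enzyme precursor is cut by site-1 protease, and *2410131K14Rik*, also named Spring1, lay between -0.061 and -0.018, and *Gnptab* passed the threshold with the offsets (-0.13, adjusted p = 0.00024, edgeR).

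Regulators and partners of family proteins were 9 genes, of which 7 were tested, 2 rose, 1 fell and 4 did not pass the test. Among all genes tested 40.7% were called. *Syvn1*, the ER ubiquitin ligase HRD1 that acts in ER-associated degradation, had between 3899 and 4244 normalised counts in the non-targeting line and between 4605 and 5071 in the knockdown line, a log2 fold change of 0.24 (SE 0.029, adjusted p = 2e-09, edgeR). *Hcfc1*, the host cell factor that binds CREB3, had overlapping lines and a log2 fold change of 0.12 (adjusted p = 4e-04, edgeR), and it missed the threshold with the offsets for GC content and length (adjusted p = 0.019, edgeR). *Nr4a1*, an orphan nuclear receptor, had between 478 and 539 normalised counts in the former and between 341 and 408 in the latter, a log2 fold change of -0.39 (adjusted p = 6.6e-07, edgeR). *Nr4a1* was among the genes the study picked from these same libraries, so that its direction is not independent evidence. *Sel1l*, *Fbxw7*, *Crebrf* and *Os9* had log2 fold changes from 0.045 to 0.12. With the offsets *Os9* passed the threshold (0.12, adjusted p = 3.6e-05, edgeR) and *Sel1l* and *Crebrf* were below 0. *Tm4sf20* had no count in any library, and *Dcstamp* had at most 1.

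Of 13 genes reported as targets of family members in various tissues, 9 were tested, 3 rose, 1 fell and 5 did not pass the test. *Fgf21*, a metabolic hormone gene and a target of CREB-H in liver, had between 9428 and 10131 normalised counts in the non-targeting line and between 11708 and 12647 in the knockdown line, a log2 fold change of 0.31 (SE 0.024, adjusted p = 2.3e-14, edgeR). *Creb3l3*, the CREB-H gene, had only 12 to 38 reads per library, and a link between the 2 genes was not tested. *Edem1*, of ER-associated degradation, had between 617 and 698 normalised counts in the former and between 809 and 927 in the latter, a log2 fold change of 0.38 (adjusted p = 4e-09, edgeR). *Herpud1*, of the same pathway, had a log2 fold change of 0.10 (adjusted p = 0.0053, edgeR) and missed the threshold in 5 of 10 fits with a library removed, those without non-targeting replicate 2, 4 or 5 or *Creb3l1*-shRNA1 replicate 3 or 4. *Pcsk1*, the prohormone convertase gene that the study took up from these libraries, had between 9768 and 10166 normalised counts in the non-targeting line and between 7026 and 7441 in the knockdown line, a log2 fold change of -0.46 (SE 0.024, adjusted p = 1.2e-19, edgeR). The COPII coat genes *Sec23a* and *Sec24d*, known targets in bone and cartilage, had log2 fold changes of -0.16 and -0.018 and did not pass the test (adjusted p = 0.053 and 0.66, edgeR). *Arf4*, a target of CREB3 in Golgi stress, had a log2 fold change of -0.032 (adjusted p = 0.37, edgeR). *Col1a1* and *Col1a2*, collagen genes of bone, had log2 fold changes of 0.38 and 0.41 with wide spread and did not pass the test (adjusted p = 0.032 and 0.42, edgeR). With DESeq2 *Col1a1* passed it (adjusted p = 0.0054, DESeq2). *Avp*, *Gcm1* and *Apoa4* had no count in any library and *Ihh* at most 6.

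The remaining arms of the ER stress response, which do not use the Golgi proteases, had 6 genes tested, of which 2 rose and 2 fell. *Ern1*, the IRE1 sensor, had between 2836 and 2996 normalised counts in the non-targeting line and between 3188 and 3573 in the knockdown line, a log2 fold change of 0.21 (adjusted p = 1.1e-07, edgeR). *Ddit3*, the CHOP factor, had a log2 fold change of 0.15 with overlapping lines (adjusted p = 0.0021, edgeR). *Eif2ak3*, the PERK sensor, had a log2 fold change of -0.16 (adjusted p = 0.0012, edgeR), and *Atf4*, the factor translated downstream of it, had between 13157 and 13638 normalised counts in the former and between 11635 and 11820 in the latter, a log2 fold change of -0.19 (adjusted p = 3.4e-10, edgeR). *Xbp1*, spliced by IRE1, was at 0.016 (adjusted p = 0.63, edgeR) and at 0.085 with the offsets for GC content and length, where it passed the test (adjusted p = 0.00085, edgeR). *Ern2*, with 8 to 23 reads, was at -0.32 (adjusted p = 0.38, edgeR). Without non-targeting replicate 2, *Ddit3* and *Eif2ak3* missed the threshold and 2 of the 6 were called. The 4 lists had 4 of 9, 3 of 7, 4 of 9 and 4 of 6 tested genes called, beside 40.7% of all genes tested, and the lines did not overlap for 5, 2, 4 and 3 of them, beside 36.0%. Their median log2 fold changes were -0.043, 0.057, 0.10 and -0.070, and no gene called in them changed by 1.5-fold. The called genes include *Nr4a1* and *Pcsk1*, which the study picked from these same libraries.

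**Figure D4:**
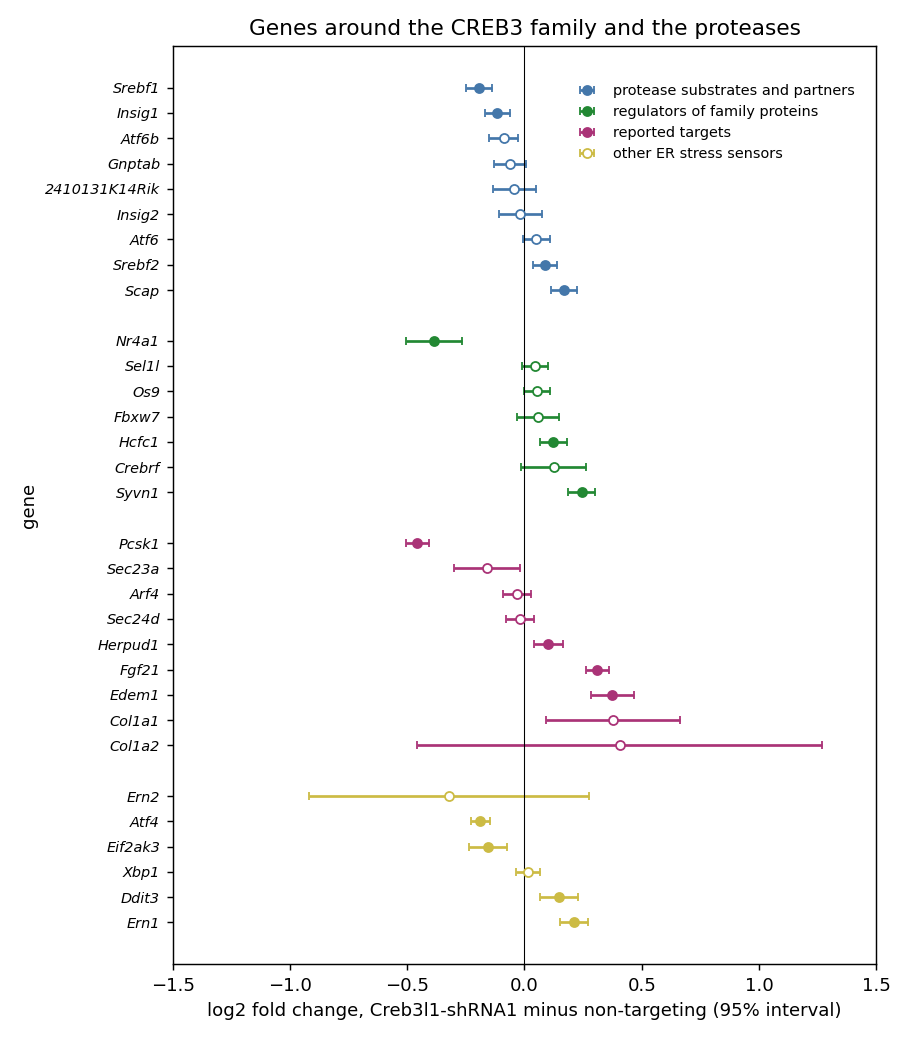
Log2 fold change (Creb3l1-shRNA1 minus non-targeting shRNA) with its 95% interval for the tested genes of 4 lists, in blue for protease substrates and partners, green for regulators, purple for reported targets and yellow for other ER stress sensors. Filled points had an adjusted p under 0.01, each list has filled points on both sides of 0, and Pcsk1 at -0.46 is the lowest of them.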

How the data were processed

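Poly(A)-selected RNA of AtT20 cells was sequenced in 10 libraries with a stranded kit. Per the paper and the labels, the authors checked and trimmed the reads with FastQC tools, aligned them with STAR to GRCm38, counted them per gene with featureCounts on an Ensembl annotation and tested them with DESeq2. The deposited values are these raw counts per gene, without normalisation. The strand setting of the counting and the versions of STAR and featureCounts are not given in the sources used here. Groups and replicate numbers were taken from the labels, and the study calls its replicates biological without stating whether they were separate cultures, so that p-values measure the spread between these libraries only.

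Counts were analysed with R 4.3.3, edgeR 4.0.16 and limma 3.58.1, and DESeq2 1.42.0 was an alternative. Genes were filtered with filterByExpr (minimum count 10), scaled with TMM factors (0.953 to 1.01) and tested with the robust quasi-likelihood test without covariates. P-values were adjusted over 14336 genes. Intervals are 95% intervals of the fit. Symbols, lengths and positions came from GENCODE M21, which named 53706 of 53801 identifiers, and hairpin sequences from the supplement of the paper. Sequence matches were ungapped, in the longest coding transcript. No pair of libraries held identical counts. The depth was 17420698 to 22205107 counts per library, and the biological coefficient of variation was 5.37%. Reads shared by overlapping or near-identical genes could have been split or dropped by the counting. The script was tested on simulated data.

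The members and the 4 lists were chosen with earlier results of these data known. The named genes are the 7 members, the genes of the 4 lists, the markers and the 5 genes most like *Creb3l1*, with overlapping neighbours and *Gm42418* named because a value touched them. Alternatives were DESeq2, RLE size factors, library totals, no filter, a minimum of 10 counts per library in all libraries, a replicate block, omission of each library, offsets for GC content and transcript length (splines with 5 degrees of freedom, 14315 genes), a limit of 0.05 for the adjusted p, a change of 1.5-fold or more, and the longest coding transcript as length. A fit without robust estimation and the ratio of the proteases with each library left out were added after seeing the data.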

Additional observations from a re-analysis of the deposited data

Results flagged for a closer look

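In 3 of 76 groups of 5 libraries examined, the gap between the lowest or highest library and the nearest of the others was above Dixon's critical value for 5 libraries as a share of the range, where chance gives about 3.80 such groups, and none was in the 7 genes of the family and the proteases. *Insig2* had 857.9 normalised counts in *Creb3l1*-shRNA1 replicate 5, against 807 to 820 in the other 4 knockdown libraries. In non-targeting shRNA replicate 1 the normalised count of *Col1a2* was 312.8, against 166 to 207 in the other 4 control libraries. *Ddit3* had 1036 normalised counts in *Creb3l1*-shRNA1 replicate 2, against 1097 to 1119 in the other 4 knockdown libraries.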

How the results depend on the processing

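*Creb3l1*, *Creb3l2* and *Creb3l3* kept their direction and their call under every alternative run, except that *Creb3l2* was not counted where at least 1.5-fold was required. Their log2 fold changes with a library left out were -1.78 to -1.73, -0.28 to -0.25 and -1.08 to -0.87. With the offsets for GC content and length they were -1.69, -0.35 and -0.87, so that *Creb3l1* and *Creb3l2* moved outside those ranges. The call of *Creb3* was gained with the offsets for GC content and length (0.11). With a library left out, *Mbtps1* was between -0.024 and 0.00078, above 0 without non-targeting replicate 1 or *Creb3l1*-shRNA1 replicate 1, and *Mbtps2* was between 0.083 and 0.13, called without *Creb3l1*-shRNA1 replicate 4. Among the other genes the sign turned for *Atf6* (-0.052), *Sel1l* (-0.041) and *Crebrf* (-0.021) with the offsets, and for *Insig2* with a library left out (-0.056 to 0.0067), all of which were uncalled in these fits. The cause of these changes was not tested. Requiring at least 1.5-fold left 1108 genes overall and 0 in each of the 4 lists, and an adjusted p under 0.05 gave 4 of the 7 genes, with *Mbtps2*, and 50.3% of all genes. The list of ER stress sensors had 2 to 4 genes called with a library left out. With the longest coding transcript *Creb3l1* held 54.8% and 27.7% of the family total. *Creb3l4* was not tested when all libraries had to reach 10 counts. A replicate block gave 6013 genes and the same 3 of the 7. After each gene was centred on its mean within each line, libraries with the same number had correlations of -0.065 to 0.040 between the lines. Values this low show no pairing by number, but they cannot exclude it. The share of higher calls was 50.2% to 54.1% across the fits. Depth limits *Creb3l3* and *Creb3l4*, with 6 to 38 reads per library.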
